A study of Arabidopsis thaliana with 6 samples.

Results

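The genes described here are 40 Arabidopsis thaliana loci that encode heat shock proteins and chaperonins, with the heat shock transcription factor gene HSFA2, of 27416 genes in the deposited tables. They were taken from a list of locus numbers, which holds no threshold on a measured value. The list was chosen with earlier results of these data known. By the compartment in which the protein works, 15 loci are cytosolic, 5 belong to the endoplasmic reticulum (ER), 10 to the mitochondrion, 9 to the plastid and 1, HSFA2, to the nucleus. By family, 12 encode HSP70 chaperones, 7 HSP90 chaperones, 8 the HSP60 and CPN chaperonins, 3 HSP100 disaggregases and 9 small heat shock proteins. All 40 were present in the tables, as 52 transcript models.

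Polyadenylated RNA was sequenced from vegetative tissue of 21-day-old plants of the Columbia ecotype, kept on MS medium without a stress treatment. The plants of 3 libraries carried mutations in both UCP1 and UCP3 (genotype ucp1 ucp3), and those of the other 3 were wild-type. UCP1 and UCP3 encode carriers of the mitochondrial uncoupling protein family in the inner membrane, and the comparison asks which transcripts differ when both genes are mutated. The alleles are not named in the sources used here. The replicates are labelled biological, and nothing says whether they came from separate cultures, so p-values measure the spread between these samples.

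HSP70 proteins bind short hydrophobic stretches of unfolded chains in cycles driven by ATP, and HSP90 proteins act later, on clients that are nearly folded. Chaperonins are ring-shaped chambers closed by a co-chaperonin lid, small heat shock proteins hold aggregating proteins, and HSP100 proteins pull them out of aggregates. Each compartment of a plant cell has its own set, encoded in the nucleus, and proteins that enter the mitochondrion or plastid are folded there by the local HSP70 and chaperonin. Most small heat shock protein genes are nearly silent without heat and are switched on by heat shock factors such as HSFA2, whereas the cognate HSP70 and chaperonin genes are transcribed in unstressed tissue.

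Depth ranged from 1183600 to 11296133 reads assigned to genes, a 9.54-fold range, and ucp1 ucp3 replicate 3 was the shallowest library and replicate 2 of that group the deepest. A count of 3 corresponds to between 0.264 and 2.71 CPM, that is, counts per 1000000 reads after TMM scaling of the library sizes, and this floor covers counting error only. UCP1 had 67.2, 46.6 and 53.3 CPM in ucp1 ucp3 and 69.2, 67.3 and 75.3 CPM in wild-type (log2 fold change -0.35, adjusted p = 0.226 in edgeR). UCP3 had 8.68, 10.2 and 10.8 CPM in ucp1 ucp3 and 12.3, 16.1 and 13.0 CPM in wild-type (-0.49, adjusted p = 0.224 in edgeR). Both transcripts were thus present in the mutant group and do not check its label, so each direction below is that of the libraries labelled ucp1 ucp3. The summed level of 4 leaf markers was 41505 ± 3523 TPM in ucp1 ucp3 and 34018 ± 899.8 TPM in wild-type (SD, n = 3 each), without overlap, and 1 of the 4, the antenna gene LHCB1.3, was called higher. Of the 5 root markers 0 were called, and their sum, most of it PYK10 (log2 fold change -0.18), lay between 954 and 1357 TPM in ucp1 ucp3 and between 1141 and 1715 TPM in wild-type. The other 4 root markers had estimates above 0, CASP1 at 0.38, EXPA7 at 0.31, COBL9 at 0.62 and CASP2 at 0.89, and the ucp1 ucp3 values of CASP2 were all above those of wild-type. The 4 flower markers were near 0 but also apart, with sums of 5.18 to 8.34 TPM in ucp1 ucp3 and 2.79 to 4.58 TPM in wild-type, and of the seed markers SESA3 had no read and CRA1 at most 0.903 CPM. Their part in the results below was not tested.

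Most chaperone transcripts had lower levels in ucp1 ucp3 than in wild-type in each of the 4 compartments, and 6 genes passed the test. Of the 40 genes, 33 passed the expression filter of edgeR and were tested, and 6 of them were lower and 0 higher at an adjusted p under 0.05 over all 17415 tested genes, where 0.482% were called lower and 0.781% higher. The 6 genes were HSC70-2, HSP70-3, HSP90.2 and HSP90.3 of the cytosol, mtHSC70-2 of the mitochondrion and CPN60B2 of the plastid. The log2 fold change was below 0 for 32 of the 33, against 50.3% of all tested genes, and its median was -0.46, against -0.00 over all genes. The 3 ucp1 ucp3 values lay below the 3 wild-type values in 23 of the 33 and above them in 0, against 12.4% and 11.2% of all tested genes. At an unadjusted p under 0.05, 24 of the 33 were lower and 0 higher, where the shares over all genes were 8.37% and 8.04%. One of the 33, HSP18.2, passed the filter through the wild-type libraries alone. Without it 31 of 32 estimates were below 0, 22 genes were apart, 23 were lower at an unadjusted p under 0.05 and the median was -0.45. Because the genes were chosen with earlier results of these data known, these shares describe the set and are not an independent test. In RNA from vegetative tissue, fewer cells of a type and less RNA per cell cannot be told apart.

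**Figure D1:**
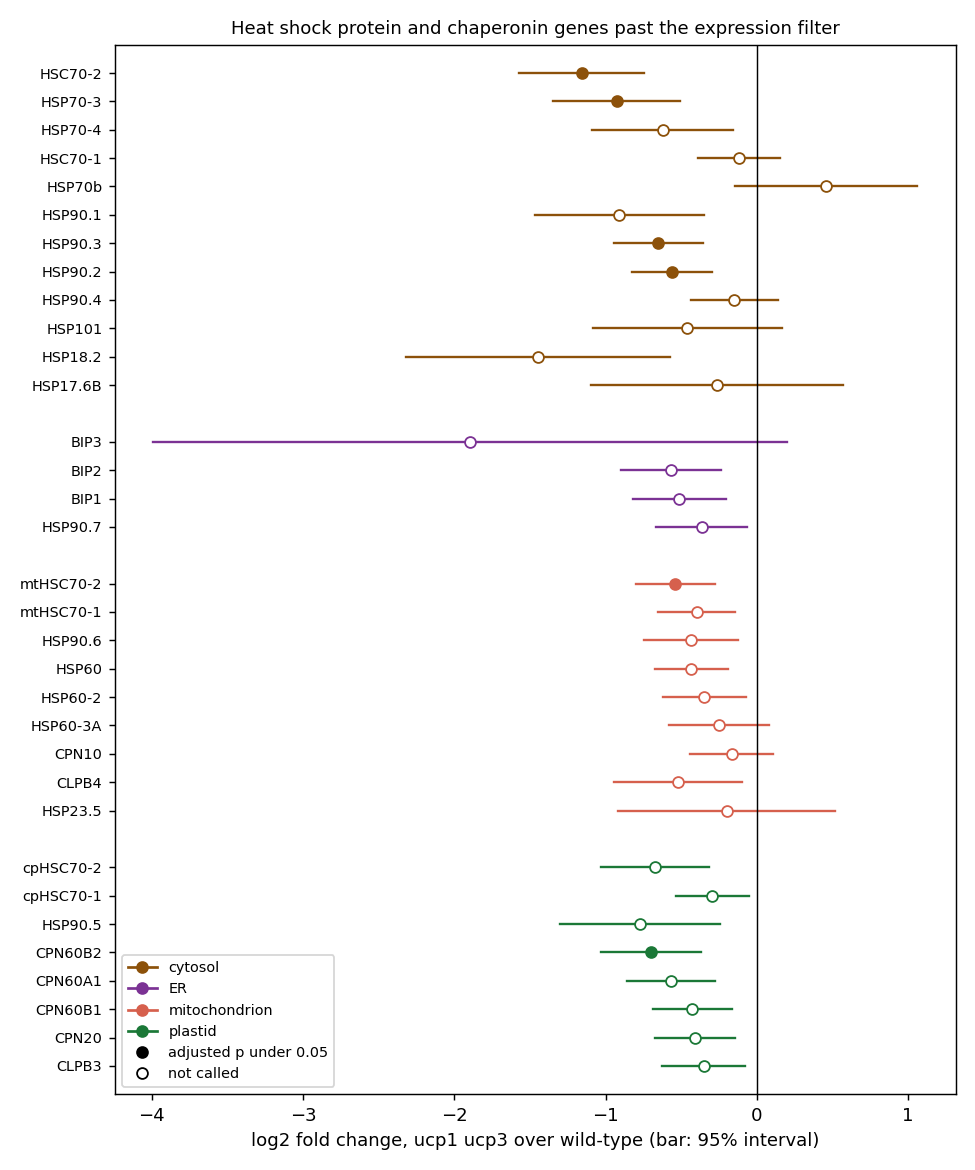
Log2 fold change of the 33 tested genes, ucp1 ucp3 over wild-type (horizontal axis), grouped by compartment, with 95% intervals as bars and filled points for an adjusted p under 0.05. HSP70b alone has an estimate above 0, and the 6 filled points lie between -1.16 and -0.54.

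The 6 calls depended on single libraries. When either replicate 1 or replicate 3 of ucp1 ucp3 was left out, 0 of the genes were called, without wild-type replicate 1 the call of HSC70-2 stood alone, and without wild-type replicate 3 there were 3 calls. Without wild-type replicate 2 there were 4, and without ucp1 ucp3 replicate 2 there were 13. The estimates moved less than the calls: that of HSC70-2 lay between -1.31 and -0.91 with 1 library left out, and those of the other 5 called genes between -1.06 and -0.46. Over all genes, between 16 and 347 were called lower with 1 library left out.

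**Figure D2:**
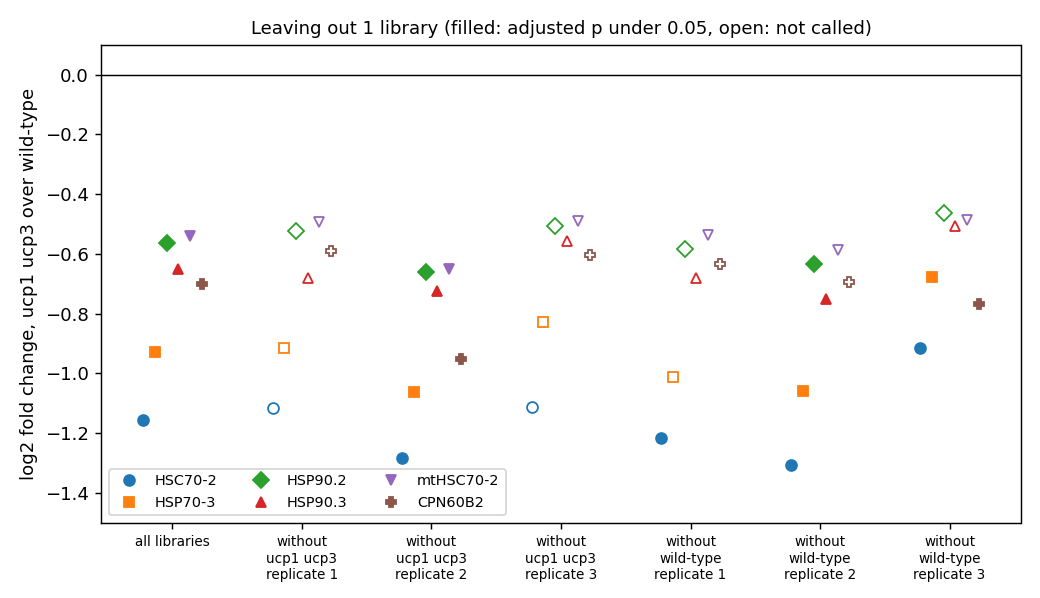
Log2 fold change, ucp1 ucp3 over wild-type, of the 6 called genes with all 6 libraries and with each library left out in turn (filled symbols, adjusted p under 0.05; open symbols, not called). All 42 estimates are below 0, and all 6 symbols are open when replicate 1 or replicate 3 of ucp1 ucp3 is left out.

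The libraries ranked alike for most of these genes. Within ucp1 ucp3, replicate 2 had the highest level in 26 of the 33 tested genes (29.6% of all tested genes), and the lowest of all 6 libraries was ucp1 ucp3 replicate 3 in 18 and ucp1 ucp3 replicate 1 in 12 of the 33 (27.4% and 21.0% of all genes). Wild-type replicate 3 was the highest of all 6 in 19 of the 33 (20.2% of all genes), among them 4 of 4 ER genes, 8 of 12 cytosolic and 6 of 9 mitochondrial genes but 1 of 8 plastid genes. In the plastid set wild-type replicate 1 was the highest in 6 of 8. The lowest library also differed by compartment, being ucp1 ucp3 replicate 3 for 10 of 12 cytosolic genes and ucp1 ucp3 replicate 1 for 5 of 8 plastid and 3 of 4 ER genes. These counts describe the libraries and were not tested.

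**Figure D3:**
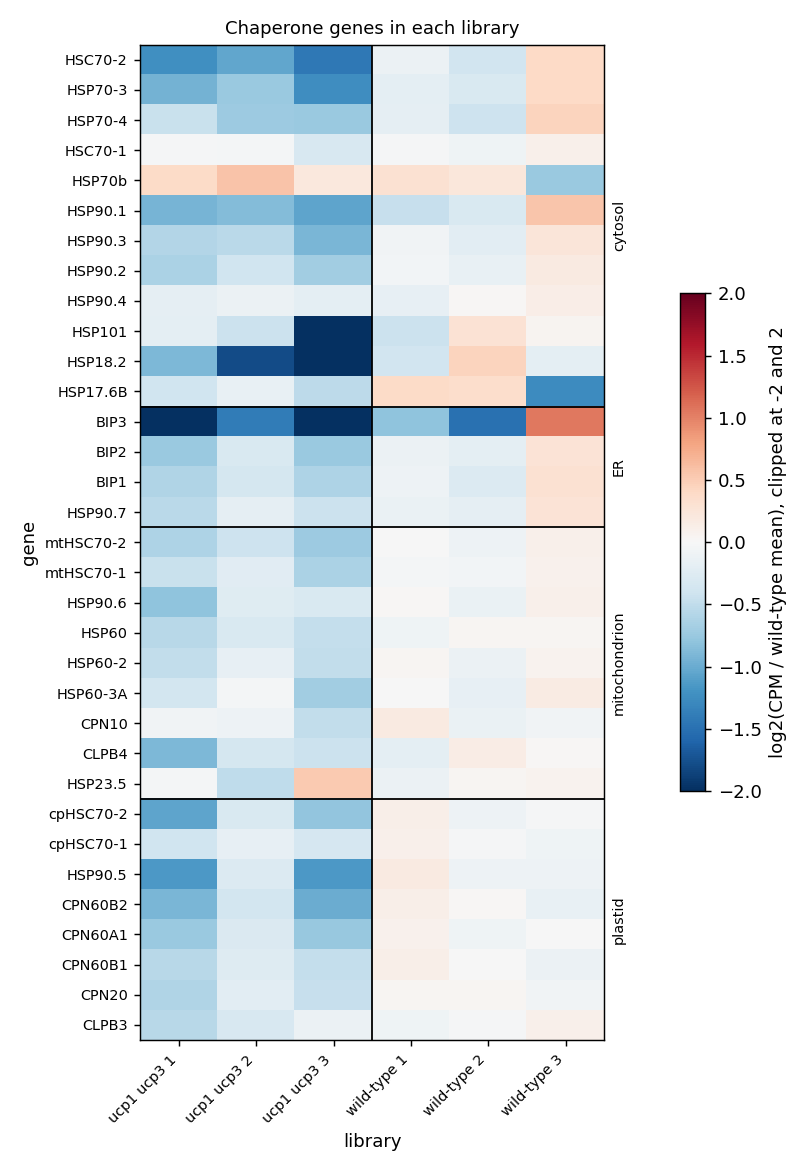
Log2 ratio of the CPM in each library to the wild-type mean for the 33 tested genes (rows, by compartment), with the ucp1 ucp3 libraries left of the wild-type libraries (blue, below the wild-type mean; red, above it). The ucp1 ucp3 columns are mostly blue, palest in replicate 2, and wild-type replicate 3 is red in most cytosolic and in all ER genes.

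The sequence upstream of the genes was read because heat shock factors and ER stress factors bind known letters there. In the 250 bases before each annotated gene start (RefSeq, build TAIR10.1, 27443 genes), a heat shock element of 3 alternating units (GAA, TTC and GAA, each 2 bases apart, both strands searched) was found in 0.386% of genes and in 2 of the 40, HSFA2 and HSP17.4. The first ER stress element, CCAAT and CCACG set 9 bases apart, was found in 0.306% of all genes and in 1 of the 40, HSP90.7, and the second ER stress element, ATTGG and CCACG set 1 base apart, in 0.0619% of all genes and in 0 of the 40. A pair of such units, GAA and TTC in either order and 2 bases apart, which every match of the heat shock element also contains, was found in 16.1% of all genes and in 9 of the 40. Of the 6 called genes only CPN60B2 held such a pair. The matches are shown with up to 20 bases on either side, in the gene's own direction, for HSFA2 (chr2:11135516-11135568, plus strand), both matches of HSP17.4 (chr3:16984934-16984986 and chr3:16984868-16984905, minus strand), CPN60B2 (chr3:4389177-4389214, plus strand) and HSP90.7 (chr4:12556059-12556100, minus strand). None of these windows overlaps an annotated exon, and capitals mark the matched motif.
HSFA2: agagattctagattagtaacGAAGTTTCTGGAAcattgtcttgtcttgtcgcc
HSP17.4 first: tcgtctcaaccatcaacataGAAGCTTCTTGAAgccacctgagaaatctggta
HSP17.4 second: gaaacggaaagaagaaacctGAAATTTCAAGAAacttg
CPN60B2: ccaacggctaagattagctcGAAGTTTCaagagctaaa
HSP90.7: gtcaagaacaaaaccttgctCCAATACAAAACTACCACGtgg
The match began 88 bases before the start of HSFA2, 99 and 18 bases before that of HSP17.4, 18 bases before that of CPN60B2 and 22 bases before that of HSP90.7. A match is a description of the letters and not a measured binding site. Only these exact letters and spacings were searched, and only in these 250 bases. The lack of a match therefore does not show that a gene lacks such an element. The 2 genes with 3 alternating units were both too low to be tested here, and the other 5 called genes had no match to any of these motifs in this window.

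HSFA2 (AT2G26150), a heat shock factor gene that is itself heat-induced, had 2, 5 and 0 reads in ucp1 ucp3 and 6, 8 and 15 reads in wild-type. The groups did not overlap in CPM, at 0.457, 0.440 and 0 CPM in ucp1 ucp3 against 1.23, 2.22 and 3.49 CPM in wild-type. Of these, ucp1 ucp3 replicates 1 and 3 were under their floors of 0.685 and 2.71 CPM, and the gene did not pass the filter. Fitted without the filter it had a log2 fold change of -2.40 ± 0.63 (SE, adjusted p = 0.0394 in edgeR). It was not called in the other 2 settings that fitted it, at -2.30 without ucp1 ucp3 replicate 3 (adjusted p = 0.172 in edgeR) and at -2.54 in DESeq2, which gave no adjusted p. The size rests on 7 reads in the ucp1 ucp3 group against 29 reads in the wild-type group. The direction of HSFA2 was not shared by most other genes that failed the filter. Fitted without it, HSP22.0 (1.77 ± 1.85), HSP17.4 (1.29 ± 0.97), HSP17.6II (0.52 ± 1.00) and HSP17.6A (0.31 ± 0.96) had estimates above 0 (SE). HSP23.6 (-0.30 ± 1.65) had one below 0. None of these small heat shock protein genes was called in that fit, and all had few reads. Of the 2 HSFA2 transcript models, the second had 0, 0.124 and 0 TPM (a share of all transcripts that corrects for length) in ucp1 ucp3 and 0, 1.29 and 2.98 TPM in wild-type. The groups overlapped at 0 for that model.

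In the cytosol, 4 of 12 tested genes were called lower in ucp1 ucp3, against 0.482% of all tested genes. They were 2 of the HSP70 and 2 of the HSP90 family, and the median log2 fold change of the 12 was -0.59. HSC70-2 (AT5G02490), a minor cognate HSP70 that lies beside HSC70-1 on chromosome 5, had 15.5, 17.7 and 13.5 CPM in ucp1 ucp3 and 33.4, 27.98 and 47.6 CPM in wild-type. Every ucp1 ucp3 library was below every wild-type library, and wild-type replicate 3 stood highest. The level in ucp1 ucp3 was 44.9% of that in wild-type (95% interval 33.7% to 59.7%), a log2 fold change of -1.16 ± 0.19 (SE, adjusted p = 0.0113 in edgeR), and 14 of 16 alternative settings kept the call.

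HSP70-3 (AT3G09440), another cytosolic cognate HSP70, had 111, 128 and 90.27 CPM in ucp1 ucp3 and 187, 173 and 281 CPM in wild-type. The groups did not overlap, and the log2 fold change was -0.93 ± 0.19 (SE, adjusted p = 0.0459 in edgeR), called in 10 of 16 settings. Most of its TPM came from the second transcript model, with 28.8, 49.1 and 22.2 TPM in ucp1 ucp3 and 78.2, 75.8 and 86.7 TPM in wild-type. The first model had 24.3, 18.0 and 21.8 TPM in ucp1 ucp3 and 21.3, 18.17 and 59.0 TPM in wild-type, so the groups were apart in the second model and overlapped in the first. Of the 31-base words of HSP70-3, 17.0% are also found in reverse in messages of other genes, and the strand setting of the quantification is not given in the sources used here.

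HSC70-1 (AT5G02500), the main cognate HSP70 of the cytosol, was the most abundant of the 40 genes per length, at 750 TPM on average in ucp1 ucp3 and 866 TPM in wild-type. Its CPM values were 1722, 1715 and 1409 in ucp1 ucp3 and 1736, 1650 and 1884 in wild-type, and the groups overlapped (log2 fold change -0.12, 95% interval -0.39 to 0.15, adjusted p = 0.699 in edgeR). HSC70-1 therefore made up 91.6%, 90.65% and 91.6% of the TPM of the 5 cytosolic HSP70 genes in ucp1 ucp3 and 86.9%, 87.4% and 83.2% in wild-type. The groups did not overlap in this share. The other 2 cytosolic HSP70 genes were low: HSP70-4 lay between 11.7 and 14.4 CPM in ucp1 ucp3 and between 14.7 and 26.7 CPM in wild-type (-0.62, adjusted p = 0.168 in edgeR). HSP70b, a heat-inducible gene, had 7.08, 8.09 and 6.32 CPM in ucp1 ucp3 and 6.75, 6.37 and 3.25 CPM in wild-type (0.46, 95% interval -0.15 to 1.06, adjusted p = 0.458 in edgeR). It was the exception to the common direction among the genes that passed the filter. The HSP70b values overlapped between the groups, and wild-type replicate 3, the highest library for most of the set, was the lowest for this gene.

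**Figure D4:**
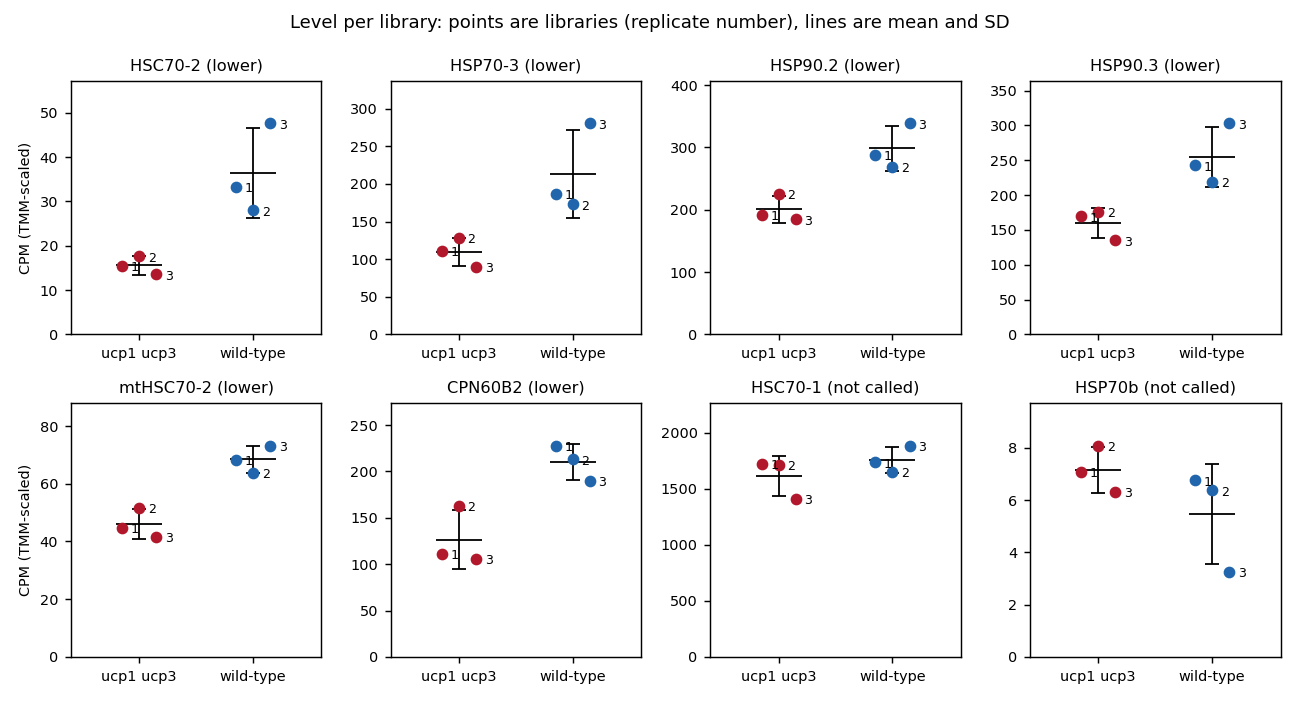
Level per library (CPM after TMM scaling, vertical axes from 0) of the 6 called genes and of HSC70-1 and HSP70b, with replicate numbers beside the points and lines for mean and SD (n = 3 each). The groups are apart in the 6 called genes and overlap in HSC70-1 and HSP70b.

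The cytosolic HSP90 genes HSP90.2, HSP90.3 and HSP90.4 are close copies that lie near each other on chromosome 5. HSP90.3 (AT5G56010) had 170, 176 and 135 CPM in ucp1 ucp3 and 243, 219 and 303 CPM in wild-type. HSP90.2 (AT5G56030) had 192, 225 and 185 CPM in ucp1 ucp3 and 288, 269 and 339 CPM in wild-type. Both were apart between the groups, with log2 fold changes of -0.65 ± 0.14 for HSP90.3 (SE, adjusted p = 0.0360 in edgeR) and -0.56 ± 0.12 for HSP90.2 (SE, adjusted p = 0.0421 in edgeR). HSP90.4, at 28.9 to 30.5 CPM in ucp1 ucp3 and 29.5 to 36.3 CPM in wild-type, had a log2 fold change of -0.15 (adjusted p = 0.638 in edgeR). Reads can be divided wrongly among them, since 27.8% of the 31-base words of HSP90.2, 35.8% of those of HSP90.3 and 29.6% of those of HSP90.4 are found in the same orientation in other genes. Counted as 1 gene, the 3 copies had a log2 fold change of -0.58 ± 0.13 (SE, adjusted p = 0.0432 in edgeR). HSP90.1, the heat-inducible cytosolic HSP90, had 12.8, 13.4 and 11.7 CPM in ucp1 ucp3 and 17.603, 19.7 and 35.8 CPM in wild-type, without overlap (-0.91, adjusted p = 0.102 in edgeR). Without wild-type replicate 3 its estimate was -0.52.

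The remaining cytosolic genes were at low levels. HSP101 (AT1G74310), the disaggregase needed for acquired heat tolerance, lay between 1.81 and 9.14 CPM in ucp1 ucp3 and between 7.78 and 12.7 CPM in wild-type (-0.46, adjusted p = 0.475 in edgeR). HSP18.2, a class I small heat shock protein gene, had 2.28, 1.23 and 0.903 CPM in ucp1 ucp3 and 3.28, 5.82 and 3.72 CPM in wild-type, from 10, 14 and 1 reads in ucp1 ucp3. It passed the filter through the wild-type libraries, where it is higher, and had a log2 fold change of -1.45 (95% interval -2.32 to -0.58, adjusted p = 0.0904 in edgeR). HSP17.6B lay between 2.71 and 3.52 CPM in ucp1 ucp3 and between 1.63 and 5.12 CPM in wild-type (-0.26, adjusted p = 0.810 in edgeR). The 6 small heat shock protein genes that did not pass the filter had few reads. HSP17.6A had 7 reads in ucp1 ucp3 and 4 in wild-type, HSP17.6II had 6 in ucp1 ucp3 and 3 in wild-type, and HSP17.4 had 10 in ucp1 ucp3 and 3 in wild-type. These totals are not scaled for depth. All 7 reads of HSP17.6A and 5 of the 6 of HSP17.6II came from ucp1 ucp3 replicate 2, the deepest library. Mean CPM in ucp1 ucp3 and wild-type was 0.205 and 0.306 for HSP17.6A, 0.223 and 0.238 for HSP17.6II, and 0.527 and 0.229 for HSP17.4. HSP22.0 of the ER had 1 read in ucp1 ucp3 and 0 in wild-type, HSP23.6 of the mitochondrion 1 in each group, and HSP21 of the plastid 0 in all 6 libraries. Of the 31-base words of HSP17.4, 65.3% are found in reverse in messages of other genes.

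In the ER, 0 of 4 tested genes passed the test (3 at an unadjusted p under 0.05, with DESeq2 2), and the median log2 fold change was -0.54. The shares over all genes were 8.37% lower at an unadjusted p under 0.05 in edgeR and 0.691% called lower with DESeq2. BIP2 (AT5G42020), which with BIP1 encodes the constitutive HSP70 of the ER lumen, had 180, 246 and 181 CPM in ucp1 ucp3 and 278, 263 and 367 CPM in wild-type. BIP1 (AT5G28540) had 245, 290 and 241 CPM in ucp1 ucp3 and 347, 307 and 458 CPM in wild-type. Both pairs of groups were apart, with log2 fold changes of -0.57 ± 0.15 for BIP2 (SE, adjusted p = 0.0866 in edgeR) and -0.51 ± 0.14 for BIP1 (SE, adjusted p = 0.0922 in edgeR). The BIP1 and BIP2 messages share 35.5% and 36.1% of their 31-base words with each other, and pooled as 1 gene they had -0.54 (adjusted p = 0.0856 in edgeR). BIP3, the stress-induced copy, had 0.685, 3.25 and 1.81 CPM in ucp1 ucp3 and 4.91, 3.05 and 17.9 CPM in wild-type (-1.89, 95% interval -3.99 to 0.20, adjusted p = 0.354 in edgeR). The BIP3 groups overlapped, and its wild-type mean rests largely on replicate 3. With that library left out its estimate was -0.81. HSP90.7, the ER HSP90 whose upstream window is printed above, had 275, 352 and 294 CPM in ucp1 ucp3 and 363, 350 and 477 CPM in wild-type, which overlapped (-0.37, adjusted p = 0.203 in edgeR).

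In the mitochondrion, where UCP1 and UCP3 proteins are found, 1 of 9 tested genes was called lower, against 0.482% of all tested genes. The median log2 fold change of the 9 was -0.40. mtHSC70-2 (AT5G09590), an HSP70 of the matrix that takes part in import and folding, had 44.8, 51.6 and 41.5 CPM in ucp1 ucp3 and 68.4, 63.7 and 73.2 CPM in wild-type. The groups were apart, at 68.8% of wild-type (95% interval 57.4% to 82.5%) and a log2 fold change of -0.54 ± 0.12 (SE, adjusted p = 0.0459 in edgeR), and 6 of 16 settings kept the call. It shares 19.0% of its 31-base words with AT4G32208, and counted together with that locus it had -0.50 (adjusted p = 0.0637 in edgeR). The other matrix HSP70 gene, mtHSC70-1, lay between 99.3 and 132 CPM in ucp1 ucp3 and between 149 and 164 CPM in wild-type (-0.40, adjusted p = 0.107 in edgeR). HSP60 (AT3G23990), a matrix chaperonin, had 86.1, 102 and 91.2 CPM in ucp1 ucp3 and 119, 130 and 131 CPM in wild-type, with a log2 fold change of -0.43 ± 0.11 (SE, adjusted p = 0.0732 in edgeR). All 3 of its ucp1 ucp3 values were below the wild-type values.

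The other mitochondrial genes had estimates between -0.52 and -0.17, none of them called. The disaggregase gene CLPB4 (-0.52), the HSP90 gene HSP90.6 (-0.44) and the chaperonin HSP60-2 (-0.35) were apart between the groups. The chaperonin HSP60-3A (-0.25), the small heat shock protein gene HSP23.5 (-0.20) and the co-chaperonin CPN10 (-0.17) overlapped. HSP23.5 lay between 2.64 and 5.42 CPM in ucp1 ucp3 and between 3.48 and 3.95 CPM in wild-type. For HSP60-2, the second transcript model was listed at 0 TPM in all 3 ucp1 ucp3 libraries and at 1.24, 2.35 and 1.36 TPM in wild-type, beside 22.9 to 31.3 TPM in ucp1 ucp3 and 31.2 to 35.5 TPM in wild-type of the first.

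In the plastid, 1 of 8 tested genes was called lower, against 0.482% of all tested genes, and the median log2 fold change was -0.50. All 8 genes were apart between the groups with ucp1 ucp3 lower, against 12.4% of all tested genes. CPN60B2 (AT3G13470), a beta subunit of the chaperonin that folds stromal proteins such as the large subunit of Rubisco, had 111, 163 and 106 CPM in ucp1 ucp3 and 228, 213 and 190 CPM in wild-type. Replicate 2 was the highest of the ucp1 ucp3 libraries and still below each wild-type library. Its level was 61.5% of wild-type (95% interval 49.0% to 77.3%), a log2 fold change of -0.70 ± 0.15 (SE, adjusted p = 0.0430 in edgeR), and 12 of 16 settings kept the call. CPN60A1 (AT2G28000), an alpha subunit, had 372, 509 and 369 CPM in ucp1 ucp3 and 663, 584 and 617 CPM in wild-type (-0.57 ± 0.14, SE, adjusted p = 0.0578 in edgeR). CPN60B1, the other beta subunit among the 40 genes, lay between 562 and 689 CPM in ucp1 ucp3 and between 765 and 895 CPM in wild-type (-0.43, adjusted p = 0.0960 in edgeR). CPN20, the co-chaperonin lid, lay between 363 and 477 CPM in ucp1 ucp3 and between 522 and 564 CPM in wild-type (-0.41, adjusted p = 0.108 in edgeR).

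The plastid HSP90 gene HSP90.5, which acts with the import machinery, had 192, 350 and 191 CPM in ucp1 ucp3 and 480, 395 and 397 CPM in wild-type. Its estimate was the lowest of the plastid set, at -0.77 (95% interval -1.30 to -0.24, adjusted p = 0.149 in edgeR), with ucp1 ucp3 replicate 2 far above the other libraries of its group. Without ucp1 ucp3 replicate 2 it was called, at -1.15. The stromal HSP70 gene cpHSC70-2 lay between 178 and 298 CPM in ucp1 ucp3 and between 343 and 399 CPM in wild-type (-0.67, adjusted p = 0.0681 in edgeR). Its copy cpHSC70-1 (-0.29, adjusted p = 0.212 in edgeR) and the plastid disaggregase gene CLPB3 (-0.35, adjusted p = 0.183 in edgeR) were closer to wild-type.

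Within pairs and complexes, the shares of single copies differed between the groups in some sets and not in others, here in TPM and without a test. CPN60B2 made up 16.9% ± 2.0 of the CPN60B1 and CPN60B2 messages in ucp1 ucp3 and 20.3% ± 0.4 in wild-type (SD, n = 3 each). The further beta subunit genes CPN60B3 and CPN60B4 were not counted here. The share of cpHSC70-2 in both stromal HSP70 messages was 42.5% ± 4.3 in ucp1 ucp3 and 49.6% ± 1.2 in wild-type, and that of mtHSC70-2 in both matrix HSP70 messages was 28.2% ± 0.7 in ucp1 ucp3 and 30.3% ± 0.7 in wild-type. The groups did not overlap in these 3 shares. HSP90.4, the least abundant of its 3 close copies, instead took 7.90% ± 0.62 of their sum in ucp1 ucp3 and 5.91% ± 0.67 in wild-type, also without overlap. HSP60 made up 53.7% ± 2.5 of the 3 mitochondrial HSP60 messages in ucp1 ucp3 and 55.0% ± 2.5 in wild-type, and the groups overlapped. The ratios between partners overlapped. CPN60A1 over CPN60B1 plus CPN60B2 was 0.552 in ucp1 ucp3 and 0.592 in wild-type. CPN20 over CPN60A1 plus CPN60B1 plus CPN60B2 was 0.849 in ucp1 ucp3 and 0.798 in wild-type. CPN10 over the 3 mitochondrial HSP60 messages was 1.55 in ucp1 ucp3 and 1.38 in wild-type, and BIP1 over BIP2 was 1.33 in ucp1 ucp3 and 1.26 in wild-type, also with overlap.

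Summed over all 40 genes, the deposited TPM was 3199 ± 536 in ucp1 ucp3 and 4541 ± 134 in wild-type (SD, n = 3 each), which is 0.285% to 0.382% of all transcripts in ucp1 ucp3 and 0.439% to 0.463% in wild-type. The plastid genes summed to 1268, 1861 and 1374 TPM in ucp1 ucp3 and 2381, 2258 and 2102 TPM in wild-type, a mean of 66.8% of wild-type. The ER genes summed to 300.1, 415 and 313 TPM in ucp1 ucp3 and 469.9, 444 and 615 TPM in wild-type (67.2%). The mitochondrial genes summed to 326, 393 and 296 TPM in ucp1 ucp3 and 470.5, 441 and 459 TPM in wild-type (74.1%). The cytosolic genes, most of whose sum is HSC70-1, reached 1033, 1148 and 871 TPM in ucp1 ucp3 and 1284, 1242 and 1452 TPM in wild-type (76.7%). In each compartment every ucp1 ucp3 library lay below every wild-type library, and whether the compartments differ from each other was not tested. In CPM after TMM scaling the sums were closer to wild-type, also without overlap. They were 69.8% for the plastid, 71.4% for the ER, 75.7% for the mitochondrion and 81.7% for the cytosol. By family, the TPM sums in ucp1 ucp3 were 63.4% of wild-type for HSP90, 69.1% for HSP60 and CPN, 71.7% for HSP100 and 74.7% for HSP70. In CPM they were 67.1%, 72.0%, 76.0% and 79.3% in the same order. Small heat shock protein genes summed to 15.71 ± 1.63 TPM in ucp1 ucp3 and 24.0 ± 6.2 TPM in wild-type. The groups were apart in this TPM sum and overlapped in the CPM sum.

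**Figure D5:**
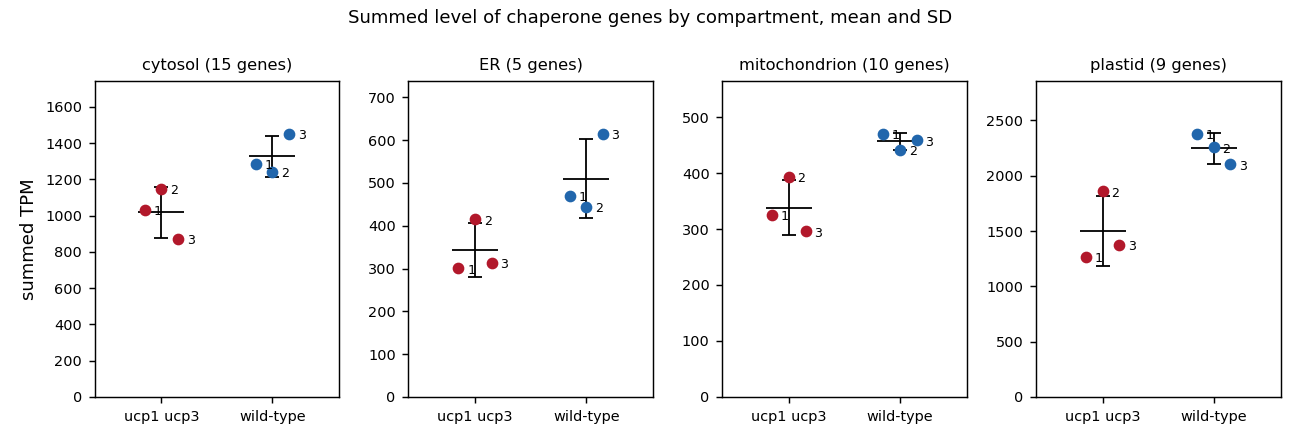
Summed TPM of the genes of each compartment per library (vertical axes from 0), with replicate numbers beside the points and lines for mean and SD (n = 3 each). In all 4 compartments the ucp1 ucp3 libraries lie below the wild-type libraries, and replicate 2 is the highest of the ucp1 ucp3 libraries.

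In the wider folding machinery 2 genes passed. Of 93 further genes in 7 lists, 81 were tested, 2 were lower (2.47%) and 0 higher, against 0.482% and 0.781% of all tested genes, and the median log2 fold change was -0.14. Estimates were below 0 for 64 of the 81, against 50.3% of all tested genes. The groups were apart with ucp1 ucp3 lower in 26 and higher in 3, against 12.4% and 11.2%. At an unadjusted p under 0.05 in edgeR, 18 were lower and 3 higher, against 8.37% and 8.04%. CNX1, the ER lectin chaperone calnexin, had 159, 196 and 161 CPM in ucp1 ucp3 and 269, 233 and 306 CPM in wild-type (-0.64 ± 0.13, SE, adjusted p = 0.0306 in edgeR). LON1, an ATP-dependent protease of the mitochondrial matrix, had 29.0, 32.5 and 19.0 CPM in ucp1 ucp3 and 51.0, 41.6 and 48.6 CPM in wild-type (-0.70 ± 0.16, SE, adjusted p = 0.0424 in edgeR). The groups were apart in both genes. Without any 1 of wild-type replicates 1 and 3 or ucp1 ucp3 replicates 1 and 3, 0 of these further genes were called, and without ucp1 ucp3 replicate 2 there were 6. Sums without overlap were not particular to the 40 genes. The 93 further genes summed to 84.4% of wild-type in TPM and 90.9% in CPM, both apart. The heat shock factor list was apart in TPM (90.9%) and overlapped in CPM (98.4%). The plastid folding and Clp list overlapped in both (88.6% and 97.6%).

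By list, the median was -0.33 over 12 ER folding genes, -0.20 over 12 plastid folding and Clp genes, -0.13 over 14 tested mitochondrial folding, import and protease genes and -0.11 over the 9 subunits of the cytosolic CCT chaperonin. It was -0.08 over 17 cytosolic co-chaperones, -0.07 over 15 tested heat shock factors and -0.25 over 2 tested further small heat shock protein genes. The gene with the smallest p in the co-chaperone list was ROF1, an FKBP-type co-chaperone of HSP90, at 64.2, 68.1 and 65.0 CPM in ucp1 ucp3 and 87.6, 88.4 and 87.2 CPM in wild-type (-0.41, adjusted p = 0.0744 in edgeR). CCT7 (-0.23, adjusted p = 0.321 in edgeR), HSP15.4 (-0.29, adjusted p = 0.469 in edgeR) and the plastid chaperonin subunit CPN60B4 (-0.58, adjusted p = 0.0880 in edgeR) had the smallest p in theirs. Among the heat shock factors it was HSFA3, a factor of the drought and late heat response, at 14.2, 9.41 and 8.12 CPM in ucp1 ucp3 and 6.35, 8.03 and 5.35 CPM in wild-type. The HSFA3 groups were narrowly apart, with the ucp1 ucp3 libraries higher (0.74, 95% interval 0.20 to 1.28, adjusted p = 0.157 in edgeR).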

How the data were processed

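The 40 genes, the 7 lists and the tests were chosen with earlier results of these data known. Per the submitters' processing notes, the authors' pipeline used kallisto, DESeq2 and the TAIR10 build; versions, transcript index and strand setting are not given in the sources used here. The deposited tables hold estimated counts and TPM per transcript model. Libraries were made with a stranded mRNA kit, per the labels' protocols. Estimated counts of 35386 models were summed to 27416 loci and rounded to whole numbers. All 6 libraries were fitted with edgeR 4.0.16 in R 4.3.3: default filter (about 2.29 CPM), TMM, robust quasi-likelihood F test, genotype as the only term, Benjamini-Hochberg adjustment over all 17415 tested genes, call at adjusted p under 0.05. CPM is over the TMM-scaled sum of the genes that passed the filter. Deposited TPM was summed per locus for levels between genes and per compartment. Replicates of a group differed beyond sampling noise (chi-square over degrees of freedom 2.41 to 6.38), so none was merged.

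Full values are given for called genes, the 2 smallest p of each compartment and HSFA2, and for each list its called genes and its smallest p; per-library values of other genes were added after they were seen. Shared 31-base words were counted among annotated mRNAs, and upstream windows were read, from RefSeq TAIR10.1, all 40 loci matching. The tests were tried on simulated counts. In all, 16 other settings were tried: DESeq2 1.42.0, limma 3.58.1 with voom, a replicate block, RLE factors, library totals without TMM, no filter, a stricter filter, thinning, no robust option, each of 6 libraries left out, and close copies pooled, the last chosen after seeing the data.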

Additional observations from a re-analysis of the deposited data

How the results depend on the processing

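The 33 tested genes gave 517 estimates under the 16 alternatives, and 514 kept their sign. The other 3 turned above 0: HSP90.4 at 0.0074 after thinning, HSP17.6B at 0.023 without wild-type replicate 1 (lowest -0.63 with 1 library left out) and HSP23.5 at 0.13 without ucp1 ucp3 replicate 2 (lowest -0.31). The number of the 40 genes called lower, 6 with the main settings, was 13 with DESeq2 (which gave no adjusted p for 14) and 12 without the filter, and 0 to 13 with 1 library left out. It was 5 with limma-voom, 6 with RLE factors, 7 with library totals, 5 with the stricter filter, 6 after thinning, 4 without the robust option and 4 with close copies pooled. Over all genes, 229 were higher and 158 lower with DESeq2, and 267 higher and 223 lower without the filter, against 136 and 84; with 1 library left out the range was 31 to 326 higher and 16 to 347 lower. Library totals without TMM gave 109 higher and 110 lower and moved the median of all genes to -0.06. Of the 93 further folding genes, 4 were lower without the filter, 1 with limma-voom, 1 after thinning and 0 to 6 with 1 library left out. The median of the mitochondrial genes lay between -0.52 and -0.29 with 1 library left out.

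Replicate numbers are shared by the groups, but same-numbered libraries did not deviate together (correlations of -0.0682, -0.0964 and -0.0111). With 3 libraries per group this cannot settle whether same-numbered libraries were grown or prepared together. With the replicate block, 2 of the 40 genes were lower (CPN60B2 and HSC70-2), 45 of all genes and 0 of the further folding genes. A count of 3 in ucp1 ucp3 replicate 3 is 2.71 CPM, which limits what can be said of the small heat shock protein genes and HSFA2.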
